A study of Mus musculus with 4 samples.

Results

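The genes described here encode the enzymes that make cholesterol and fatty acids, together with the SREBP system that controls them. They were given as a list of 34 symbols, named by their role in these routes and chosen with earlier results of these data known. A gene entered through the probe sets whose platform annotation names its symbol alone, and its main probe set was the one with the highest mean signal over the 4 arrays. This gave 33 of the 34 genes, among 18193 genes named in the same way, with 81 probe sets in all. Acat2 was not analysed here. All 33 genes passed the filter on dim probe sets described below, as did 10242 genes of the series.

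Total RNA came from unsorted thymocytes, mostly developing T cells, of mice aged 7 weeks. A first group of 2 mice carried a hypomorphic allele of Atg16l1, one that leaves the gene with reduced function, and a second group of 2 mice served as wild-type controls. Each group held 1 male and 1 female whose arrays the labels leave unnamed, and sex was not a term in any test. How the allele was made, the strain background and the cell types it affects were not stated in the labels. Each animal had 1 Affymetrix array, and 2 arrays per group limit the precision of every value.

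Cholesterol is built in the cytosol and endoplasmic reticulum by the mevalonate pathway, which leads through isoprenoid units to squalene and then, by ring closure and trimming, to cholesterol. Fatty acids are built by fatty acid synthase from units that Acly and Acaca supply, and are then lengthened by elongases and given double bonds by desaturases. Both routes are controlled by SREBP transcription factors, which Scap carries out of the endoplasmic reticulum when sterols are low and which INSIG proteins hold back when sterols are plentiful. In T cells these routes are known for supplying membrane to dividing cells, and the thymus holds many dividing precursors.

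The SREBP factors are known to bind sterol regulatory elements near the start sites of these genes, commonly beside CCAAT boxes. The promoters of 2 genes are shown because Insig1 had the largest log2 change of the 33 and Hmgcs1 was the only gene of the list whose window held the searched element. Each window runs from 250 bases before to 50 bases after the annotated start, 5′ to 3′ along the gene, from RefSeq, build GRCm38.p6. Capitals mark TCACNCCAC, one form of the sterol regulatory element, and CCAAT, each on either strand, and no overlap between them occurred in these 2 windows.
Insig1, chr5:28071162-28071461, plus strand: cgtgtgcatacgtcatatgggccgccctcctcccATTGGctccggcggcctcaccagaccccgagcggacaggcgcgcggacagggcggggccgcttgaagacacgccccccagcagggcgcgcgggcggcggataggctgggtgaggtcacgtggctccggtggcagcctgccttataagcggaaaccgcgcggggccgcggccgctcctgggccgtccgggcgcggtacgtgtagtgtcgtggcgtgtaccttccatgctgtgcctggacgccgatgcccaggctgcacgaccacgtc
Hmgcs1, chr13:119690101-119690400, plus strand: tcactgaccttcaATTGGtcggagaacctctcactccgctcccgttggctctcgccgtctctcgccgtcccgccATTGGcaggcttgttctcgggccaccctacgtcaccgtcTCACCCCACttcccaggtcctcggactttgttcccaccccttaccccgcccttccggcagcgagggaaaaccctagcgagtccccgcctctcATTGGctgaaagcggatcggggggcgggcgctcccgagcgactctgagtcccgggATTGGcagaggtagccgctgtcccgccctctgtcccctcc
The element in Hmgcs1 begins 137 bases before the start. The letters TCACNCCAC occurred in windows of 1 of 27 genes of the list that have a window, and in 1.44% of all 27025 genes with one. CCAAT occurred in 22 of the 27 genes and in 41.1% of all genes, and GGGCGG, the core of a site for the factor Sp1, in 21 of the 27 and in 38.2%. These are matches of letters only, and other forms of the element were not searched.

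Atg16l1 itself was lower in the hypomorphs. Its main probe set (1428169_at) had centred log2 signals of 6.33 and 6.19 in hypomorphs, against 7.74 and 7.93 on the control arrays. The groups did not overlap, and the hypomorph level was 33.6% of the control level (log2 change -1.57 ± 0.18 SE, adjusted p 0.0174 in limma). Leaving out control replicate 1 gave an adjusted p of 0.0906 at a log2 change of -1.66, and leaving out control replicate 2 gave 0.112 at -1.48.

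Thymocyte markers were bright on all arrays, with a sum of 12 markers, Rag1, Dntt and Cd8b1 foremost, of 34227 and 38110 scaled signal units in hypomorphs, against 31933 and 37244 in controls. Median deposited signals of the arrays ranged from 23.5 to 38.4, so arrays were brought to a common median log2 signal. Even then the log2 change had a median of 0.21 over the 10242 tested genes, and changes are given both as fitted and relative to that value. An exact permutation test could reach no p smaller than 0.333 with 2 arrays against 2, and the p-values here draw on the variance that limma shares across probe sets. They set each difference between groups against a spread between animals, described as independent, that is estimated in part from other probe sets.

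None of the 33 lipid synthesis genes passed an adjusted p of 0.05 in limma, where 0.0391% of tested genes and 0.0533% of tested probe sets did in either direction. At an unadjusted p under 0.05 there were 9 genes, or 27.3% of the list, all higher in the hypomorphs, against a background of 18.2% of tested genes in that direction. No gene of the list was lower at that level, where 0.84% of tested genes were. The median log2 change of the list was 0.25, which is 0.041 above the median of the tested genes, and 19 of 33 genes lay above that median, against 50% of tested genes by construction. Both hypomorph arrays stood above both control arrays for 22 of 33 genes (66.7%), against 51.9% of tested genes, and below them for 2, against 4.82%. As a whole the list thus lay close to the other tested genes. With arrays brought to a common median over tested probe sets only, none of the 33 had an unadjusted p under 0.05 in limma. In that fit 1660 of 22519 tested probe sets did, in either direction, against 3572 in the main fit. Relative to the tested genes the list's median was -0.055 without control replicate 2, with 12 of 33 genes above, and -0.020 without hypomorph replicate 1, with 14 of 33 above.

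**Figure D1:**
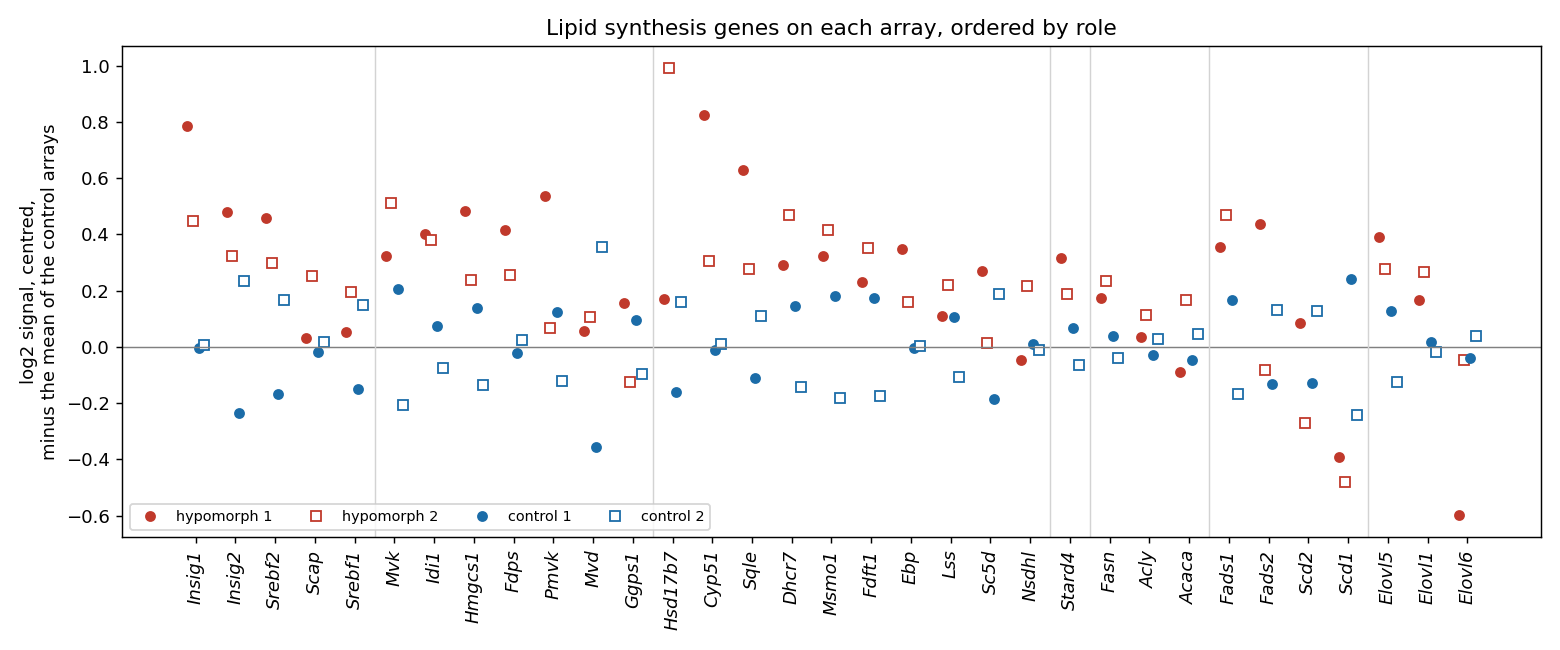
Centred log2 signal of the main probe set of each of 33 lipid synthesis genes on each array, less the mean of the control arrays, with genes ordered by role and then by change (red for hypomorph, blue for control, filled circles for replicate 1 and open squares for replicate 2). Hypomorph points lie above both control points for 22 genes and below both for 2, Scd1 and Elovl6.

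**Figure D2:**
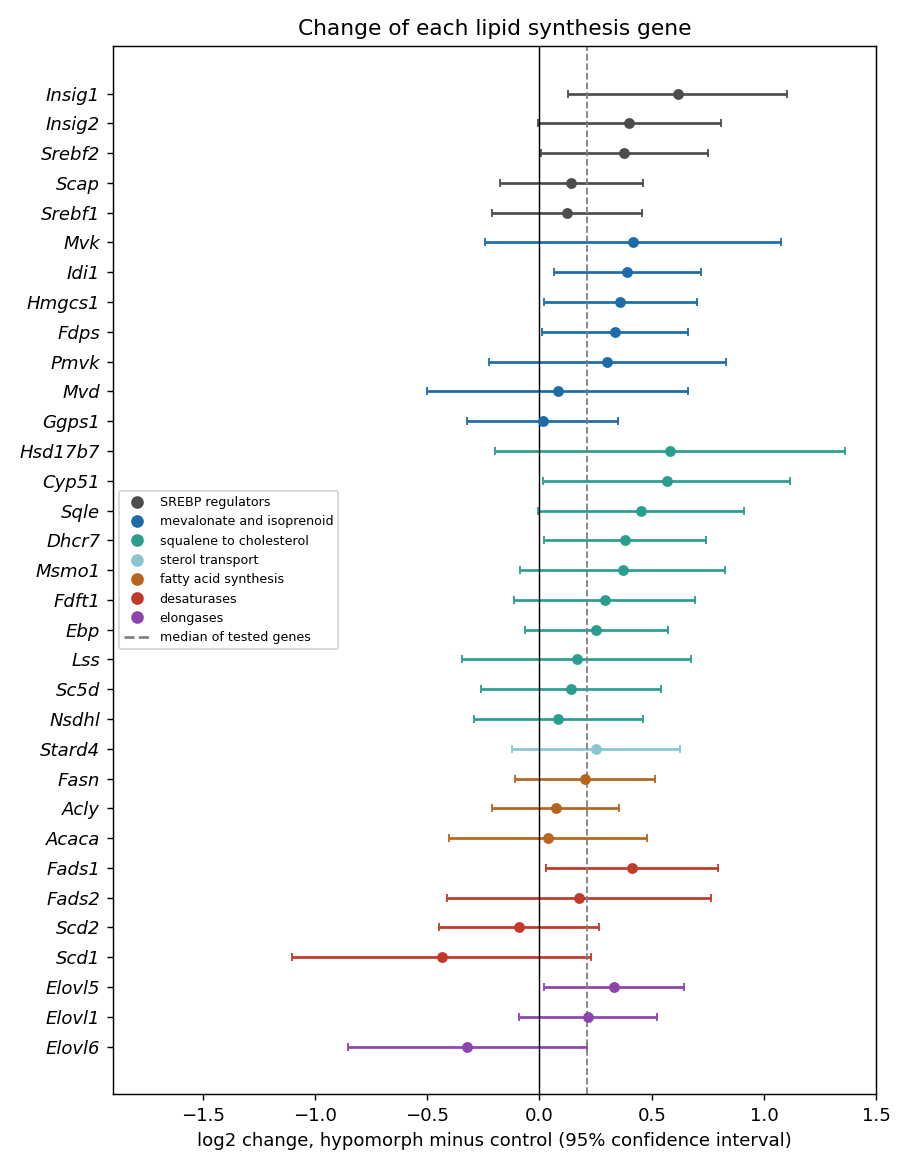
Log2 change of each gene, hypomorph minus control, with its 95% confidence interval from limma, coloured by role. The solid line marks no change and the dashed line the median change of all tested genes, 0.21. The intervals of 9 genes lie above 0, and those of 32 genes hold the dashed line, the exception being Elovl6, whose interval ends just short of it.

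Among the regulators, Insig1, whose protein holds the SREBP-Scap complex in the endoplasmic reticulum and whose own gene is a known SREBP target, had the largest estimate of the list. Its probe set (1454671_at) had centred log2 signals of 6.83 and 6.49 on the hypomorph arrays, against 6.04 and 6.05 on the control arrays. The hypomorph arrays were both higher, and differed from each other more than the control arrays did. The log2 change was 0.62 ± 0.22 (SE), or 1.53-fold, with a 95% confidence interval of 0.13 to 1.10 and an adjusted p of 0.267 in limma, and it was 0.40 above the median of the tested genes. Leaving out each array in turn gave 0.45 to 0.78.

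Insig2, the related protein with the same retention role, had centred log2 signals of 8.03 and 7.87 on the hypomorph arrays, against 7.32 and 7.78 on the control arrays. The groups did not overlap, and the gap between the control arrays was larger than that between the lower hypomorph and the higher control array. The log2 change was 0.40 ± 0.18 (adjusted p 0.320), and its other 2 probe sets were at 0.35 and 0.38. Insig2 lies on chromosome 1 with Atg16l1, 126 places away in the order of genes named by the arrays, and Hsd17b7 lies there too, 413 places away, while no other gene of the list is on that chromosome.

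Srebf2, the SREBP factor that mainly serves cholesterol synthesis, had centred log2 signals of 8.09 and 7.93 on the hypomorph arrays, against 7.47 and 7.80 on the control arrays. The log2 change was 0.38 ± 0.17 (95% confidence interval 0.01 to 0.75, adjusted p 0.311), and the second probe set was at 0.24. Srebf1, the factor that mainly serves fatty acid synthesis, had 8.74 and 8.88 on the hypomorph arrays, against 8.54 and 8.83 on the control arrays. The groups overlapped, and the change of 0.12 ± 0.15 (95% confidence interval -0.21 to 0.46, adjusted p 0.686) lay 0.09 below the median of the tested genes, a relative value of -0.09. It has a single probe set, and which of the gene's transcripts that set reads was not examined. Scap, the escort protein, had 8.48 and 8.70 on the hypomorph arrays, against 8.43 and 8.47 on the control arrays, a change of 0.14 ± 0.14 (95% confidence interval -0.18 to 0.46, adjusted p 0.620). Of the 5 regulators 3 thus lay above the median of the tested genes and 2 below.

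The mevalonate and isoprenoid genes had positive estimates throughout, 7 of 7, where 82.9% of tested genes had one, and 5 of 7 lay above the median of the tested genes. Hmgcs1, which makes the HMG-CoA that enters the pathway, had centred log2 signals of 9.14 and 8.90 on the hypomorph arrays, against 8.80 and 8.52 on the control arrays. The lower hypomorph and the higher control array were close to each other. The log2 change was 0.36 ± 0.15 (95% confidence interval 0.02 to 0.70, adjusted p 0.302), and its other 3 tested probe sets were at 0.30, 0.33 and 0.37. Idi1, which interconverts the isoprenoid building blocks, had 8.20 and 8.18 on the hypomorph arrays, against 7.88 and 7.73 on the control arrays. The spread within each group was small beside the gap between groups, and the change was 0.39 ± 0.15 (adjusted p 0.284), with the other probe set at 0.64 (unadjusted p 0.00551, adjusted p 0.251).

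Fdps, which joins those units into farnesyl pyrophosphate, had 8.33 and 8.17 on the hypomorph arrays, against 7.90 and 7.94 on the control arrays. The groups did not overlap, and the change was 0.34 ± 0.15 (adjusted p 0.305). The kinases Mvk (0.42) and Pmvk (0.30), the decarboxylase Mvd (0.08) and Ggps1 (0.02), which makes the geranylgeranyl chain used to anchor proteins, had adjusted p-values of 0.478 to 0.967. For Pmvk, Mvd and Ggps1 the groups overlapped. Mvd had the widest control spread of the mevalonate genes, at 5.89 and 6.60 in the control animals, and its log2 change was -0.28 without the first of them and 0.44 without the second.

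From squalene to cholesterol all 10 genes had positive estimates and 7 lay above the median of the tested genes. Cyp51, the lanosterol demethylase, had centred log2 signals of 6.69 and 6.17 on the hypomorph arrays, against 5.86 and 5.88 on the control arrays. Hypomorph replicate 1 was the high array, and the change was 0.57 ± 0.25 (adjusted p 0.307), or 0.31 without that array. Sqle, the squalene epoxidase that carries out a slow step of the pathway, had 7.14 and 6.78 on the hypomorph arrays, against 6.40 and 6.62 on the control arrays, a change of 0.45 ± 0.21 (adjusted p 0.318), or 0.28 without hypomorph replicate 1. Cyp51 and Sqle thus shared with Insig1 a high value on hypomorph replicate 1.

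Dhcr7, the reductase of the last step, showed the other order, with 8.05 and 8.23 on the hypomorph arrays, against 7.90 and 7.62 on the control arrays, and a change of 0.38 ± 0.16 (adjusted p 0.302). Msmo1, the methylsterol oxidase, had 6.79 and 6.88 on the hypomorph arrays, against 6.64 and 6.28 on the control arrays, and a change of 0.37 ± 0.21 (adjusted p 0.380). In both, control replicate 2 was the low array. The remaining genes were Hsd17b7 (0.58), Fdft1 (0.29), Ebp (0.25), Lss (0.17), Sc5d (0.14) and Nsdhl (0.08), which act at squalene formation, ring closure and the later trimming steps, with adjusted p-values of 0.385 to 0.813. Hsd17b7 was dim, and its estimate rested on hypomorph replicate 2, with a change of 0.17 without that array and 0.99 without hypomorph replicate 1. Stard4, a carrier that moves cholesterol between membranes, was at 0.25 ± 0.17 (adjusted p 0.452), and its other probe sets were at 0.36 and 0.54.

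Over both stretches of the pathway, 12 of 17 sterol enzymes lay above the median of the tested genes, and their median was 0.12 above it. Both values rested on single arrays. Without control replicate 2 the counts were 7 above and 10 below with a median of -0.030, and without hypomorph replicate 1 they were 8 above and 9 below with -0.0025. Without hypomorph replicate 2 they were 12 above and 5 below with 0.15, and without control replicate 1 they were 13 and 4 with 0.26. On the single arrays, the 17 enzymes' median deviation from each gene's own mean, less that of all tested genes, was 0.08 and -0.06 on hypomorph replicates 1 and 2, and 0.11 and -0.14 on control replicates 1 and 2. The gap between the control arrays was thus wider than that between the hypomorph arrays.

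**Figure D3:**
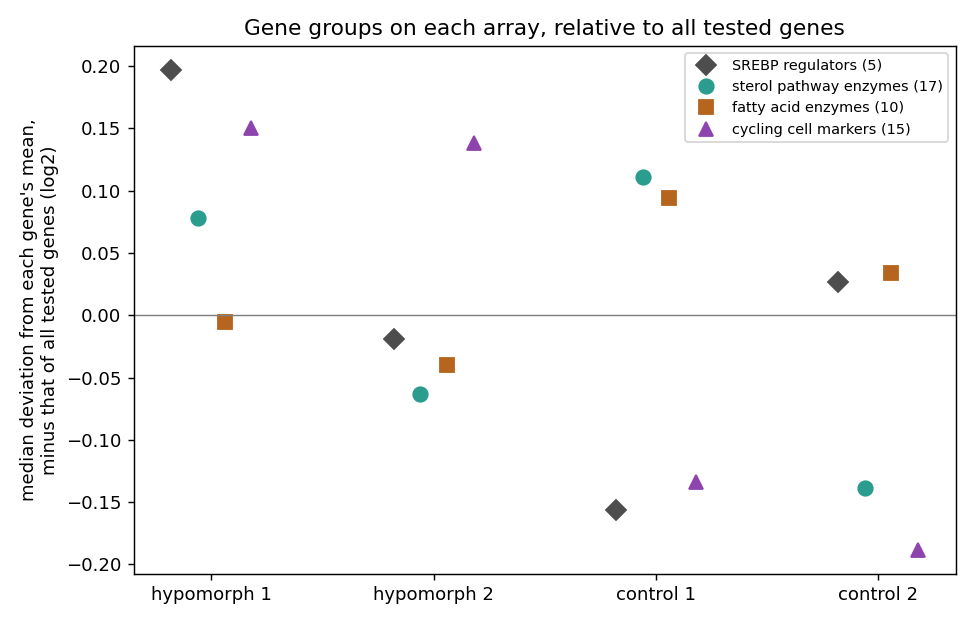
Median deviation of each gene group from its genes' own means, less that of all tested genes, on each array in log2 units (5 regulators, 17 sterol enzymes, 10 fatty acid enzymes and 15 cycling cell markers). The cycling cell markers lie above 0 on both hypomorph arrays and below 0 on both control arrays, while the sterol enzymes lie above 0 on replicate 1 of each group and below 0 on replicate 2 of each group.

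The genes that build fatty acids lay near or below the median of the tested genes. Acly, which makes cytosolic acetyl-CoA from citrate, was at 0.07 ± 0.13 (95% confidence interval -0.21 to 0.36), Acaca, which carboxylates it, at 0.04 ± 0.20 (-0.40 to 0.48) and Fasn, the synthase, at 0.20 ± 0.14 (-0.11 to 0.51). Their adjusted p-values were 0.466 to 0.934, and all 3 lay below the median of the tested genes. The interval of Insig1, the largest estimate of the list, was 0.13 to 1.10 and overlapped those of these 3 genes. A difference between Insig1 and these genes was not tested.

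The desaturases differed among themselves. Fads1, the delta-5 desaturase of polyunsaturated chains, had centred log2 signals of 7.71 and 7.82 on the hypomorph arrays, against 7.52 and 7.19 on the control arrays, with a change of 0.41 ± 0.17 (95% confidence interval 0.03 to 0.79, adjusted p 0.299) and its other probe set at 0.14. Fads2, the delta-6 desaturase, was at 0.18 ± 0.26 (adjusted p 0.748) with overlapping groups. Scd1, a delta-9 desaturase that makes monounsaturated chains, had the lowest estimate of the list, with 5.32 and 5.24 on the hypomorph arrays, against 5.96 and 5.48 on the control arrays. The groups did not overlap, and the change was -0.44 ± 0.30 (95% confidence interval -1.10 to 0.23, adjusted p 0.465), between -0.68 and -0.20 when single arrays were left out. Its signals were dim, at 52.7 and 35.4 as deposited in hypomorphs, against 51.7 and 42.2 in controls, and its other probe set was below the filter. Scd2, its paralogue, was bright, with 11.02 and 10.67 on the hypomorph arrays, against 10.81 and 11.07 on the control arrays, and the groups overlapped (change -0.09 ± 0.16, adjusted p 0.782).

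Among the elongases, Elovl5, which lengthens polyunsaturated chains, had centred log2 signals of 10.11 and 9.99 on the hypomorph arrays, against 9.84 and 9.59 on the control arrays. The change was 0.33 ± 0.14 (95% confidence interval 0.02 to 0.64, adjusted p 0.299), with the other probe set at 0.38. Elovl1, which serves long saturated chains, was at 0.22 ± 0.14 (adjusted p 0.432), next to the median of the tested genes. Elovl6, which lengthens palmitate, had 5.91 and 6.46 on the hypomorph arrays, against 6.47 and 6.54 on the control arrays, so that hypomorph replicate 1 alone stood apart. Its change was -0.32 ± 0.24 (adjusted p 0.496), and -0.05 without that array. Over the 10 fatty acid enzymes, 3 lay above the median of the tested genes, their median being 0.09 below it at -0.09. Without control replicate 2, 1 lay above it, and without control replicate 1, 4 did. With the mean of all tested probe sets of a gene, 5 lay above and 5 below, with a relative median of -0.032. Without a filter the counts were also 5 and 5, with -0.026.

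Other probe sets of the same genes mostly had the same sign. Of 31 further probe sets that passed the filter, for 19 genes, 27 had the sign of the main probe set, and the median absolute difference between them was 0.11 on the log2 scale. The 4 exceptions were in Elovl6 (0.21 against -0.32 for the main probe set), Hsd17b7 (-0.20 against 0.58), Sc5d (-0.21 against 0.14) and Mvd (-0.0078 against 0.08). None of the 31 passed an adjusted p of 0.05. Another 17 probe sets were below the filter. The main probe sets of 6 genes, Hmgcs1, Fdft1, Lss, Hsd17b7, Elovl1 and Elovl5, carry the suffix _x_at or _s_at. Affymetrix gives it to sets with probes that can match other transcripts. For Hmgcs1, Elovl1 and Elovl5 the tested sets without it gave similar values. For Fdft1 they were at 0.53 and 0.23, against 0.29 for the main probe set. For Hsd17b7 the tested set without it was the one at -0.20, and for Lss the sets without it were below the filter.

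**Figure D4:**
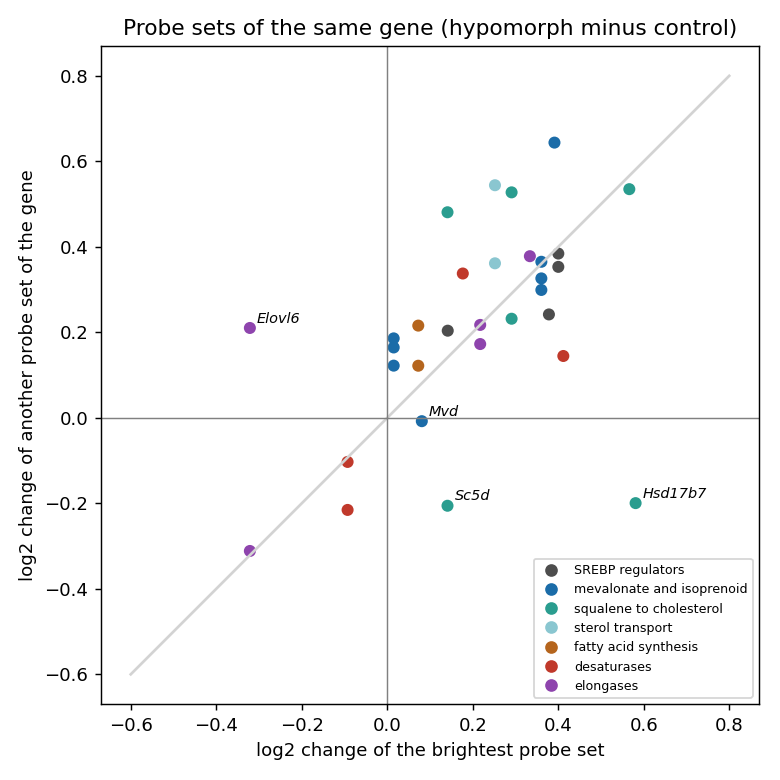
Log2 change of 31 further probe sets of 19 genes (vertical) against that of the gene's brightest probe set (horizontal), hypomorph minus control, coloured by role, with the diagonal of equal values in grey. Points in the upper right and lower left have the same sign, 27 in all, and the 4 named genes have a probe set of opposite sign.

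Further genes of the same routes gave a like picture, with none past an adjusted p of 0.05. Of 8 tested genes of sterol synthesis and uptake, 3 lay above the median of the tested genes. Mbtps2, one of the proteases that release SREBP, was at 0.49 ± 0.18 (adjusted p 0.277) and Mbtps1, the other, at 0.25 (adjusted p 0.370), while the haem-binding protein Pgrmc1 was at 0.29 and the lipoprotein receptor Lrp1, which was dim, at -0.69. Of 12 tested genes of further fatty acid steps, 7 lay above the median. They included Hsd17b12, the ketoreductase of the elongation cycle, at 0.45 ± 0.17 (adjusted p 0.288), the acyl-CoA synthetases Acsl3 (0.53) and Acsl5 (0.28), and Gpam (0.40), which starts glycerolipid synthesis.

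Of 10 genes listed for sterol efflux and the oxysterol response, 8 were annotated and 6 tested, Ch25h and Cyp27a1 being below the filter. All 6 tested genes lay below the median of the tested genes, and none passed. As fitted, 3 of the 6 changes were positive and 3 negative. Abca1, the exporter that loads cholesterol onto lipoproteins and a known target of the LXR receptors, had 499 and 328 signal units as deposited in hypomorphs, against 346 and 567 in controls. Once centred, both hypomorph arrays were below both control arrays, at a log2 change of -0.46 ± 0.18 (adjusted p 0.288). Nr1h3, which encodes LXR alpha, was at -1.60 ± 0.67 (adjusted p 0.299), and this rested on hypomorph replicate 2, with centred log2 signals of 5.12 and 2.66 in hypomorphs, against 5.42 and 5.56 in controls. The exporter Abcg1 and the cholesterol ester hydrolase Nceh1 were at 0.07 and 0.15, with adjusted p-values of 0.790 and 0.685.

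Markers of cycling cells had higher values in the hypomorphs as well. Of 15 such markers 13 lay above the median of the tested genes, with a median of 0.35 above it. Both hypomorph arrays stood above both control arrays for 15 of 15, against 51.9% of tested genes. At an unadjusted p under 0.05 in limma 13 were higher, against 18.2% of tested genes, although none passed after adjustment. Their scaled sum was 24005 and 26525 signal units in hypomorphs, against 18958 and 19061 in controls. Relative to all tested genes they were at 0.15 and 0.14 in hypomorphs, against -0.13 and -0.19 in controls. Without that subtraction their median deviations were 0.22 and 0.29 in hypomorphs, against -0.29 and -0.24 in controls. Those of the 17 sterol enzymes, also without it, were 0.15 and 0.09, against -0.05 and -0.19. Both groups of genes were then higher on both hypomorph arrays, while the relative values of the sterol enzymes, given above, were not. In unsorted cells, more cells of a kind and more RNA per cell cannot be told apart, and the part of cycling cells in the values of the lipid genes was not tested.

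Markers of macrophages and dendritic cells, which express sterol efflux genes, had low estimates. All 7 tested genes of each list lay below the median of the tested genes. The scaled sums were 856 and 721 for 8 macrophage markers on the hypomorph arrays, against 870 and 1017 on the control arrays, and 3175 and 3244 for 8 dendritic cell markers, against 4025 and 3638. The dendritic cell sum came mostly from Cd74, H2-Aa, H2-Ab1 and H2-Eb1, so it mainly reads those genes. The part of macrophages and dendritic cells in the values of Abca1 and Nr1h3 was not tested. B cell markers had 5 of 6 tested genes below the median, with sums of 427 and 443 against 535 and 655. Adipocyte markers were dim, and the part of adipocytes in the values of Fasn, Scd1 and Elovl6 was not tested. Of 8 annotated adipocyte markers 2 passed the filter, Adipoq and Fabp4 did not, and the scaled sum was 145 and 134 on the hypomorph arrays, against 112 and 177 on the control arrays. Granulocyte markers varied between control animals, with sums of 2105 and 3513 on the hypomorph arrays, against 615 and 5525 on the control arrays. The sums were 183 and 136 against 175 and 156 for 8 markers of thymic epithelium and 78.4 and 60.8 against 71.7 and 57.9 for 4 erythroid markers.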

How the data were processed

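The authors deposited 1 linear intensity per probe set for each of 4 Affymetrix arrays, made with GCOS per the submitters' processing notes, which name no version, scaling target or detection calls. Affymetrix controls (64 of 45101 probe sets) were removed. By the platform annotation 34945 of the remaining 45037 named a single gene, 932 more than one and 9160 no gene, and only the first kind was used for naming. The analysis used log2(signal + 2.29), where 2.29 is the 10th percentile of signals. Fold changes are therefore on the log2(value + pseudocount) scale, which understates the change of dim genes. Arrays were then shifted to the same median. The 22519 probe sets whose mean signal reached the median of such means were tested with limma 3.58.1 in R 4.3.3 (lmFit, eBayes with a variance trend, two-sided, Benjamini-Hochberg adjustment over all of them). The procedure was tested on simulated data without an overall shift between groups, so that test did not cover the shift seen over the tested genes here. Scaled sums add signals multiplied by each array's centring factor. Lists are described by counts and medians, without a list test.

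Genes and lists were chosen with earlier results of these data known. Values on every array are given for the 12 genes with the smallest unadjusted p and the 5 regulators, and for some further genes where the arrays disagree. From each further lipid list up to 4 genes are named, taken by smallest p. Exceptions within the list, such as Scd1, Scd2 and Elovl6, were chosen after their values were seen. The alternatives were quantile normalization, other centring, pseudocounts, filters and variance models, the mean of all probe sets, the replicate number as a block, and leaving out each array. A filter on mean log2 signal was added after seeing the data. At most 1 value was identical between any 2 arrays. The ratio of 3' to 5' signal was 0.797 to 0.817 for Gapdh and 1.23 to 1.41 for actin.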

Additional observations from a re-analysis of the deposited data

How the results depend on the processing

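No lipid synthesis gene passed under any of the 16 alternatives, and 481 of 515 recomputed values kept their sign. The other filters, the fit without the variance trend and the replicate block leave each gene's change as it was. Their share of the 515 values could therefore not turn sign, and the count overstates how stable the signs were. The lowest adjusted p was that of Idi1, 0.172. The count of unadjusted p-values under 0.05 in the list, 9 with all arrays, was between 0 (centring on the tested probe sets) and 11 (pseudocount at the 25th percentile, 8.44). Over all 22519 tested probe sets the count was 3572 in the main fit, 1660 with that centring and 4536 with that pseudocount. The median change of the list, 0.25, was 0.075 with quantile normalization, 0.080 when arrays were centred on tested probe sets, 0.58 without centring, 0.30 with the higher pseudocount and 0.21 to 0.29 when single arrays were left out. Relative to the tested genes it was -0.055 to 0.12 when single arrays were left out. Over all probe sets, 12 were called, against 4 with quantile normalization, 7 when arrays were centred on tested probe sets, 79 without centring, 4 without a filter, 0 without the variance trend (2435 with an unadjusted p under 0.05) and 6 with the replicate block, and 7 to 384 when single arrays were left out. Atg16l1 was not called without centring (log2 change -1.25, adjusted p 0.0988), nor, at -1.57, without a filter (0.0596), without the variance trend (0.278) or with the replicate block (0.0614), and its change was -1.66 to -1.48 when single arrays were left out. Same-numbered arrays deviated together with a correlation of 0.089 over tested probe sets. The labels do not say that a number pairs animals. The correlation cannot show whether same-numbered animals shared sex or handling. The block left every change as it was and the list at 0 called.

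Signs turned for the following genes, none of them called. With quantile normalization this held for Srebf1 (-0.12), Scap (-0.095), Mvd (-0.053), Ggps1 (-0.23), Nsdhl (-0.11), Sc5d (-0.064), Acly (-0.17), Acaca (-0.12), Fasn (-0.027) and Elovl1 (-0.015). With centring on the tested probe sets it held for Srebf1 (-0.051), Scap (-0.033), Mvd (-0.093), Ggps1 (-0.16), Lss (-0.0081), Nsdhl (-0.090), Sc5d (-0.033), Acly (-0.10) and Acaca (-0.14). Without centring Scd2 was at 0.24 and Elovl6 at 0.0070. With scaling before the pseudocount Ggps1 was at -0.0086, and without a pseudocount at -0.0087. When single arrays were left out the range was -0.025 to 0.27 for Srebf1, -0.28 to 0.44 for Mvd, -0.13 to 0.16 for Ggps1, -0.048 to 0.22 for Nsdhl, -0.046 to 0.33 for Sc5d, -0.091 to 0.17 for Acaca, -0.27 to 0.084 for Scd2 and -0.082 to 0.44 for Fads2. Fits without an array leave a single animal in its group, which is assumed to vary like the other group. The dimmest genes of the list, Hsd17b7, Scd1 and Mvk, had the widest intervals.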
